A study of Homo sapiens with 6 samples.

Results

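Carbonic anhydrases and acid-base transporters were followed as a set of 8 genes that cells use to make, move and sense protons and bicarbonate. They were taken by symbol from the 15924 genes of the deposited count table, and all 8 (*CA9*, *CA12*, *CA2*, *ASIC1*, *SLC4A2*, *SLC4A7*, *SLC4A4* and *GPR4*) were listed there and passed the filter on low counts. Messenger RNA was sequenced from WPMY-1 cells, a stromal line of the human prostate that was immortalized and resembles myofibroblasts, so every library comes from a single line. The controls (n = 3) received no lactate, and the lactate group (n = 3) received 24 mM lactate for 48 h. According to the methods, the lactate was given as lactic acid held at a mildly acidic pH, in HEPES medium free of bicarbonate and without CO2, whereas the labels describe culture under CO2. Whether the control medium was brought to the same pH is not given in the sources used here, so lactate and acidity cannot be told apart in this comparison.

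Carbonic anhydrases speed the exchange between CO2 with water and bicarbonate with a proton. Some work in the cytosol (CA2), and others are anchored in the plasma membrane with the catalytic domain outside the cell (CA9 and CA12). Transporters of the SLC4 family carry bicarbonate across membranes, ASIC1 is a sodium channel opened by external protons, and GPR4 is a G protein-coupled receptor that senses protons. In tumors and their stroma these proteins are known for handling the acid that glycolytic cells release, and *CA9* is a classic target of hypoxia-inducible factors.

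Libraries held from 20238653 to 46505372 counts, with control replicate 1 the deepest. Replicate 1 of each group stood apart from the other libraries of its group. By a chi-square of counts over genes, control replicates 2 and 3 differed by 10.4 per degree of freedom and lactate replicates 2 and 3 by 7.13, while pairs within a group that held replicate 1 differed by 59.4 to 117. Results that rest on these libraries are therefore also given without them, in a fit on 4 libraries that was chosen after the data were examined. Of 10 stromal markers, 9 had at least 1 CPM (the usual per-library scaling of counts, with TMM factors) in all libraries, and their sum ran from 5560 to 6480 CPM in controls and from 5870 to 6140 CPM with lactate. That sum is mostly *VIM* and *COL1A1*, and 3 of the 10 passed the test in different directions: *TAGLN* rose by 1.57 on the log2 scale (edgeR adjusted p = 0.00548), *COL3A1* fell by 1.21 (0.00492) and *S100A4* fell by 1.63 (0.0122). Their part in the results that follow was not tested. Among 8 markers of prostate epithelium, *KRT8* and *KRT18* were expressed, *EPCAM* and *CDH1* did not exceed 0.368 CPM, and *KRT14* and *KLK3* were not among the listed genes. *SQSTM1*, the gene the study follows, had 1221 ± 271 CPM in controls against 621 ± 103 CPM with lactate (SD, n = 3).

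Of the 8 genes, 3 rose with lactate and none fell (edgeR quasi-likelihood test, adjusted p under 0.05 over 13188 tested genes). These were the carbonic anhydrase genes *CA9* and *CA12* and the acid-sensing channel gene *ASIC1*. Over all tested genes edgeR called 9.43%, 5.29% as higher and 4.14% as lower. At an unadjusted p under 0.05 the same 3 were higher and 0 lower, where 27.8% of all tested genes passed, 13.9% in each direction. DESeq2 also called 3 higher and 0 lower, and over all genes it called 15.0%, 7.68% as higher and 7.35% as lower. The median log2 fold change was 0.565 for the 8 genes and -0.0168 for all tested genes. In 5 of the 8, every lactate library lay above every control library (*CA9*, *CA12*, *CA2*, *ASIC1* and *GPR4*), a pattern found in 17.3% of all tested genes (32.6% in either direction). The genes were chosen with earlier results of these data in view, so these shares describe them and test nothing.

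**Figure D1:**
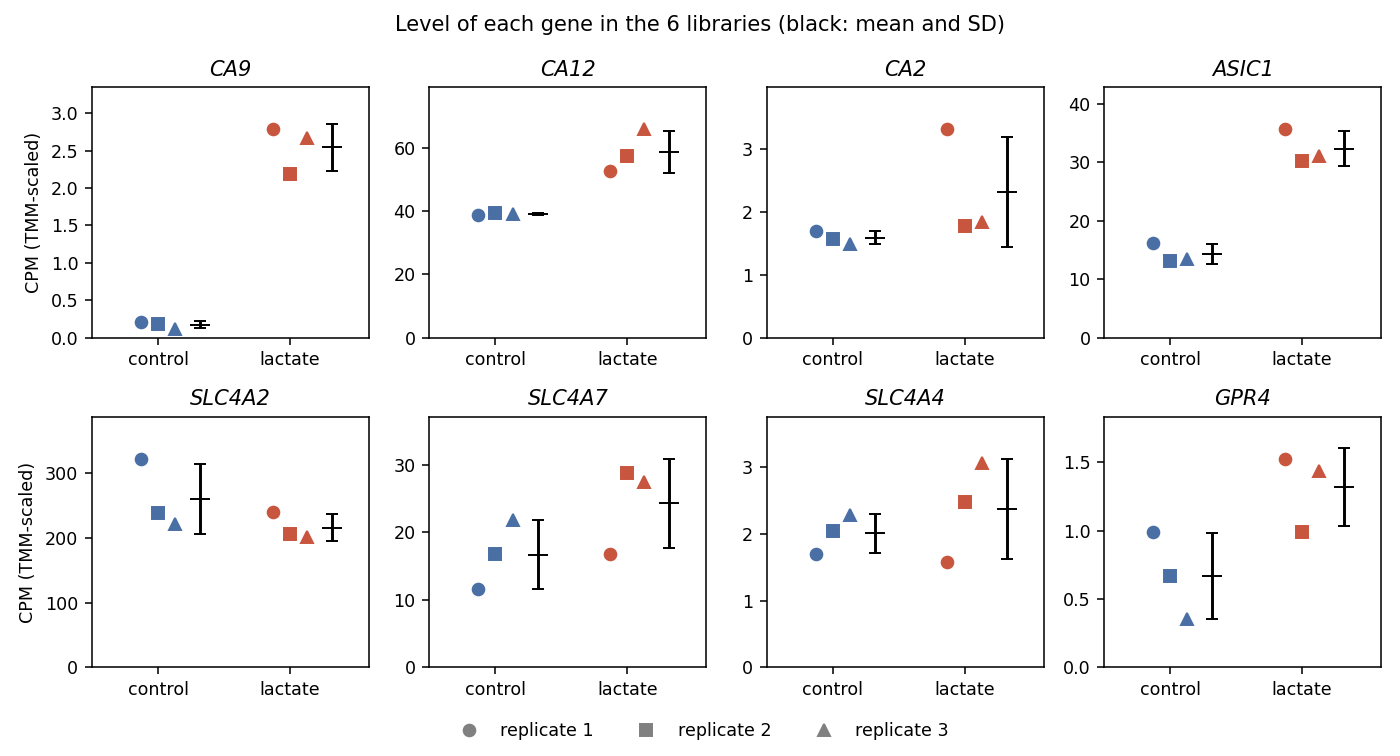
Level of each of the 8 genes in every library. The vertical axes give TMM-scaled CPM and start at 0, markers are the 3 replicates of each group, and black bars are the mean and SD. *CA9* sits at or below 0.206 CPM in all controls and at or above 2.19 CPM in all lactate libraries, whereas the groups overlap for *SLC4A2*, *SLC4A7* and *SLC4A4*.

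*CA9* encodes the membrane-anchored carbonic anhydrase IX, with its catalytic domain outside the cell. It lies on the plus strand of chromosome 9 at 35673856 to 35681159 of GRCh38 (GENCODE release 29) and is protein coding. Its raw counts were 9, 4 and 3 in control replicates 1, 2 and 3 and 53, 53 and 65 in lactate replicates 1, 2 and 3. Scaled, these were 0.206, 0.19 and 0.118 CPM in controls and 2.79, 2.19 and 2.66 CPM with lactate. The gene was close to the limit of detection in all controls and low but clearly counted in all lactate libraries, with no overlap between the groups. The log2 fold change was 3.82 (SE 0.368, 95% interval 2.99 to 4.65, edgeR adjusted p = 0.00135), or 14.1-fold. Pooled over libraries, 16 control counts against 171 lactate counts gave a ratio of 14.2, with an exact 95% interval of 8.51 to 25.4 that covers counting error only. *CA9* rose in all 12 alternatives that could test it, with log2 fold changes from 3.62 to 4.02 and adjusted p from 6.75e-11 to 0.0141.

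Of the 1670 bases covered by *CA9* exons, 643 lie opposite exons of *ARHGEF39* on the other strand, and whether the authors' counting used strand is not given. *ARHGEF39*, which encodes a guanine nucleotide exchange factor, had 13.6, 13.9 and 12.2 CPM in controls and 13.7, 16.3 and 13.3 CPM with lactate. Its log2 fold change was 0.13 (SE 0.173, adjusted p = 0.651). *ARHGEF39* was far more abundant than *CA9*, with means of 13.2 CPM in controls and 14.5 CPM with lactate against 0.172 and 2.55 CPM. Folds of genes at such unlike levels do not show how many reads were placed on the wrong gene, which was not tested.

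A short stretch just before *CA9* is shown because it holds the core of the site through which hypoxia-inducible factors are known to act on this gene. The 30 bases before the RefSeq start are chr9:35673898-35673927 (GRCh38.p14, plus strand), in which capitals mark ACGTG read on the opposite strand (CACGT as printed).
CA9 site: tcgtttccaatgCACGTacagcccgtacac
The match begins 18 bases before the start (position -18). GENCODE places the first base of the *CA9* gene 72 bases before that start. The match thus lies upstream of transcription by the RefSeq model and within the first exon by the GENCODE model. The letters ACGTG, searched on both strands and including copies inside the E-box CACGTG, occur in 18.5% of 35116 RefSeq windows of 250 bases before a start. Windows were given for 7 of the 8 genes, 17 windows in all, and 3 windows of 2 genes (*CA9* and *SLC4A2*) held a match. *SLC4A2* carries its matches as E-boxes in overlapping windows of downstream starts. The windows of *CA12* and *ASIC1*, which also rose, held no match to these letters. No GENCODE transcript was found to start at the *ASIC1* windows, so whether they cover a start used in these cells is not known. Such a match is a description of the sequence only.

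*CA12* encodes carbonic anhydrase XII, another enzyme of the plasma membrane that faces outward. It lies on the minus strand of chromosome 15 at 63321378 to 63382161. Its level was 38.9, 39.4 and 39.1 CPM in controls and 52.6, 57.5 and 65.9 CPM with lactate. The 3 controls were nearly equal and every lactate library was above them. The log2 fold change of 0.58 (SE 0.147, 95% interval 0.25 to 0.91) is a fold of 1.5, and its edgeR adjusted p of 0.0409 lay close to the threshold. The call held in 7 of 13 alternatives and the adjusted p ran from 5.72e-06 to 0.188. It was lost without control replicate 2 (adjusted p = 0.181), control replicate 3 (0.133), lactate replicate 2 (0.0989) or lactate replicate 3 (0.188).

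*CA2* encodes the fast cytosolic carbonic anhydrase II and is on the plus strand of chromosome 8 at 85463852 to 85481493. Controls had 1.7, 1.57 and 1.5 CPM, and lactate libraries had 3.31, 1.78 and 1.84 CPM. The groups did not overlap, but lactate replicate 1 alone stood far above the others. Its fitted log2 fold change was 0.52 (SE 0.316, 95% interval -0.19 to 1.24, adjusted p = 0.308). Without lactate replicate 1 it was 0.18 (adjusted p = 0.76), and with 4 libraries 0.24 (adjusted p = 0.596).

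The carbonic anhydrase family as a whole adds 5 more genes to these 3. Of 15 family genes, 8 were in the table and all 8 were tested. *CA9*, *CA12* and *CA7* rose, and none fell (0 lower at an unadjusted p under 0.05, and 0 by DESeq2), with a median log2 fold change of 0.479. Over all tested genes edgeR called 5.29% as higher and 4.14% as lower, and the median was -0.0168. At an unadjusted p under 0.05, 13.9% of all tested genes were lower, and DESeq2 called 7.35% as lower. *CA7*, a cytosolic isoform best known from brain and muscle, had 0.367, 0.524 and 0.276 CPM in controls and 1.1, 1.24 and 1.19 CPM with lactate, again without overlap. Such a separation upward was found in 17.3% of all tested genes. The log2 fold change of *CA7* was 1.61 (SE 0.378, adjusted p = 0.0329). That call was lost when any library but control replicate 1 was left out, with adjusted p from 0.0648 to 0.132. The mitochondrial isoform gene *CA5B* had a fitted log2 difference of 0.43 (adjusted p = 0.218). It passed after a correction for GC content and transcript length (0.66, adjusted p = 0.026), a fit that called 23.4% of tested genes. The cytosolic *CA13* had -0.77 (adjusted p = 0.231). *CA3*, an isoform of low activity, had -0.51 (adjusted p = 0.301). *CA11*, whose product is a related protein without catalytic activity, had -0.35 (adjusted p = 0.377).

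Divided by the length of the longest annotated transcript, carbonic anhydrase mRNAs summed to 13.1, 12.3 and 12.4 CPM per kb in controls and 17.2, 16.8 and 17.4 CPM per kb with lactate. Every lactate library had a larger sum than every control. An exact two-sided permutation test of 3 against 3 libraries cannot go below p = 0.1, the value such a separation gives, so neither this sum nor the share of a gene in it could pass a test. *CA12* was the most abundant of these mRNAs in every library, with 48.5% ± 2.03 of the sum in controls and 53.4% ± 5.61 with lactate (SD, n = 3). *CA9* made up 0.973%, 0.959% and 0.588% of the sum in controls and 10%, 8.08% and 9.44% with lactate. All 3 lactate libraries had a larger share than all 3 controls, by a mean of 8.35 percentage points, or 2.88 points where CPM were not divided by length. *CA9* had the smallest share of these mRNAs in every control, and with lactate its mean level was above that of *CA2*, 1.57 ± 0.194 against 1.35 ± 0.506 CPM per kb with lactate, although the libraries of these 2 genes overlapped. *CA3*, *CA11* and *CA13* had 12.1%, 13.6% and 7.89% of the sum in controls and 6.35%, 7.97% and 3.38% with lactate.

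**Figure D2:**
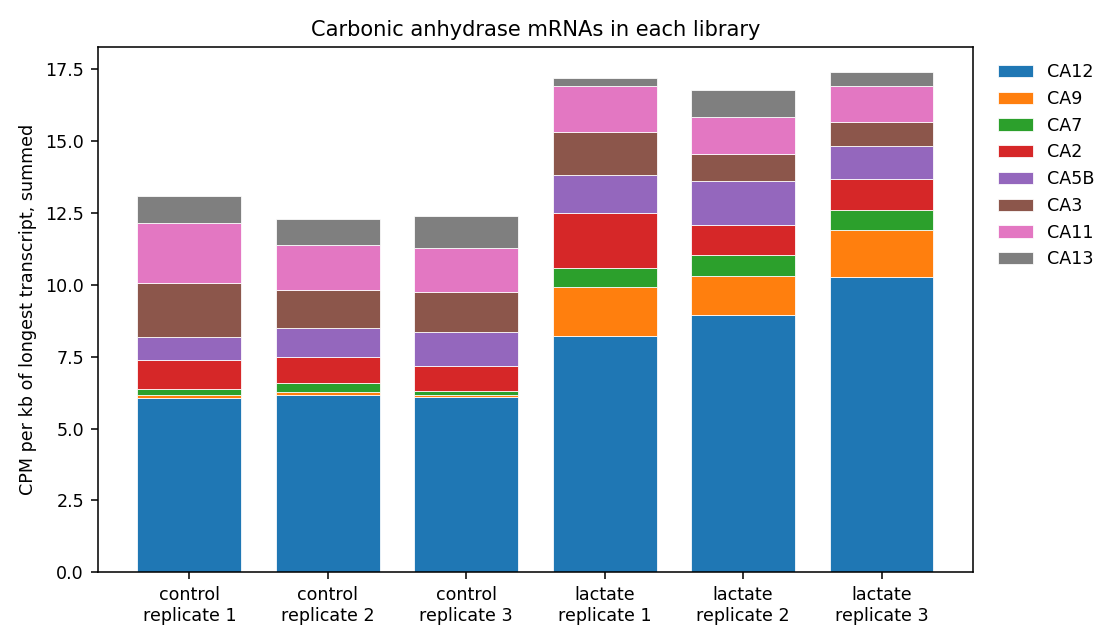
Carbonic anhydrase mRNAs of each library, stacked as CPM per kb of the longest annotated transcript. Columns are the 6 libraries and colors are the 8 listed genes. The sums are 12.3 to 13.1 in controls and 16.8 to 17.4 with lactate. *CA12* is the broadest band throughout, and the *CA9* band widens from at most 0.973% to at least 8.08% of the sum (means of 0.298% and 3.18% where CPM are not divided by length).

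*ASIC1*, the proton-gated sodium channel gene, had the second largest fold among the 8 in the fit on 6 libraries, while *GPR4* was above it without control replicate 1 (1.37 against 1.28 on the log2 scale) and with 4 libraries (1.27 against 1.2). It lies on the plus strand of chromosome 12 at 50057548 to 50083611. Controls had 16.2, 13.1 and 13.5 CPM and lactate libraries 35.7, 30.2 and 31.1 CPM. All lactate libraries were far above all controls, and replicate 1 was the highest of each group. Its fitted log2 fold change was 1.18 (SE 0.17, 95% interval 0.79 to 1.56, adjusted p = 0.0061), or 2.26-fold. The call held in 12 of 13 alternatives and was lost when control replicate 2 was left out (1.12, adjusted p = 0.0564).

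*GPR4*, the gene of the proton-sensing receptor, is on the minus strand of chromosome 19 at 45589764 to 45602208. It was scarce, with 43, 14 and 9 raw counts in controls and 29, 24 and 35 with lactate. Scaled, controls had 0.986, 0.667 and 0.354 CPM and lactate libraries 1.52, 0.993 and 1.43 CPM. The highest control and the lowest lactate library were almost equal. The log2 fold change of 0.92 missed the threshold (SE 0.422, 95% interval -0.03 to 1.87, adjusted p = 0.19), and it passed only in the fit with 4 libraries (1.27, adjusted p = 0.0302). In that fit 47.4% of all tested genes were called. Of the 3145 exon bases of *GPR4*, 114 are shared with *OPA3* on the same strand, whose log2 fold change was -0.02 (adjusted p = 0.953).

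Other acid sensors and proton channels were mixed. Of 16 genes in this group 11 were in the table and 7 could be tested, of which *ASIC1* and *TMEM206* rose and none fell (2 lower at an unadjusted p under 0.05, *TRPV1* and *HVCN1*, and 0 by DESeq2). Over all tested genes the shares were 5.29% higher and 4.14% lower by edgeR. At an unadjusted p under 0.05, 13.9% were lower, and by DESeq2 7.35% were lower. *TMEM206* encodes the proton-activated chloride channel. It had 15.2, 12.1 and 12.8 CPM in controls and 22, 20.3 and 20.1 CPM with lactate, with no overlap, and a fitted log2 difference of 0.63 (SE 0.169, adjusted p = 0.0479). The *TMEM206* call sat at the threshold, was lost with no filter on low counts (adjusted p = 0.0588) and whenever a library other than control replicate 1 was left out (0.0986 to 0.23). *TRPV1*, a cation channel opened by heat and acid, had a fitted log2 difference of -0.52 (adjusted p = 0.129). *TRPV1* passed as lower after the correction for GC content and length (-0.74, adjusted p = 0.0296) and with 4 libraries (-0.57, adjusted p = 0.0223). Of all tested genes, 23.4% and 47.4% were called in these fits. *HVCN1*, a voltage-gated proton channel gene, had -0.79 (adjusted p = 0.141). For *TRPV1* and *HVCN1* every lactate library lay below every control. Groups were separate upward in 17.3% of all tested genes and downward in 15.3%.

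The SLC4 bicarbonate transporter genes did not pass the test. *SLC4A2*, which encodes a chloride-bicarbonate exchanger found in most tissues, is on the plus strand of chromosome 7 at 151057210 to 151076527. It was by far the most abundant of the 8, with 321.7, 238.4 and 220.6 CPM in controls and 239.2, 205.5 and 201.8 CPM with lactate. Replicate 1 was the highest of each group and the groups overlapped. Fitted over all libraries, the log2 fold change was -0.27 (SE 0.172, 95% interval -0.66 to 0.12, adjusted p = 0.328), and -0.09 without control replicate 1. Exons of *CDK5* and *SLC4A2* face each other over 331 bases, and *CDK5* had a fitted log2 difference of 0.04 (adjusted p = 0.94). Exons of the antisense gene *AC010973.2*, which is not among the listed genes, face those of *SLC4A2* over 714 bases. How many reads were placed on the wrong gene was not tested.

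*SLC4A7* encodes an electroneutral sodium-bicarbonate cotransporter that brings base into the cell, and lies on the minus strand of chromosome 3 at 27372721 to 27484420. Controls had 11.6, 16.7 and 21.8 CPM and lactate libraries 16.7, 28.8 and 27.4 CPM. Here replicate 1 was the lowest of each group, the reverse of *SLC4A2*. Its fitted log2 fold change was 0.54 (SE 0.279, 95% interval -0.08 to 1.17, adjusted p = 0.235), and 0.33 without control replicate 1.

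*SLC4A4*, the gene of an electrogenic sodium-bicarbonate cotransporter, is on the plus strand of chromosome 4 at 71062667 to 71572087. It had 1.7, 2.05 and 2.28 CPM in controls and 1.58, 2.48 and 3.07 CPM with lactate. Replicate 1 was again the lowest of each group, and the groups overlapped. Fitted over all libraries, the log2 fold change was 0.26 (SE 0.305, 95% interval -0.43 to 0.95, adjusted p = 0.606). Without lactate replicate 3 it was 0.03, without control replicate 1 it was 0.14 and without lactate replicate 1 it was 0.47.

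The transporter genes differ in base composition. The longest transcript of *SLC4A2* has 61.3% G and C, and those of *SLC4A7* and *SLC4A4* have 37.2% and 39.3%. When a smooth trend of each library on GC content and transcript length was removed, *SLC4A2* fell by 0.56 on the log2 scale (SE 0.0792, adjusted p = 0.00187) and *SLC4A7* rose by 0.91 (SE 0.111, adjusted p = 9.55e-04), while *SLC4A4* had 0.55 (adjusted p = 0.128). In that fit 23.4% of tested genes were called. With 4 libraries, where 47.4% of tested genes were called, *SLC4A7* also passed (0.54, adjusted p = 0.00103), and *SLC4A2* did not (-0.17, adjusted p = 0.112). The 3 genes that rose without this correction also rose with it, *CA9* by 3.62, *ASIC1* by 0.93 and *CA12* by 0.49 on the log2 scale.

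**Figure D3:**
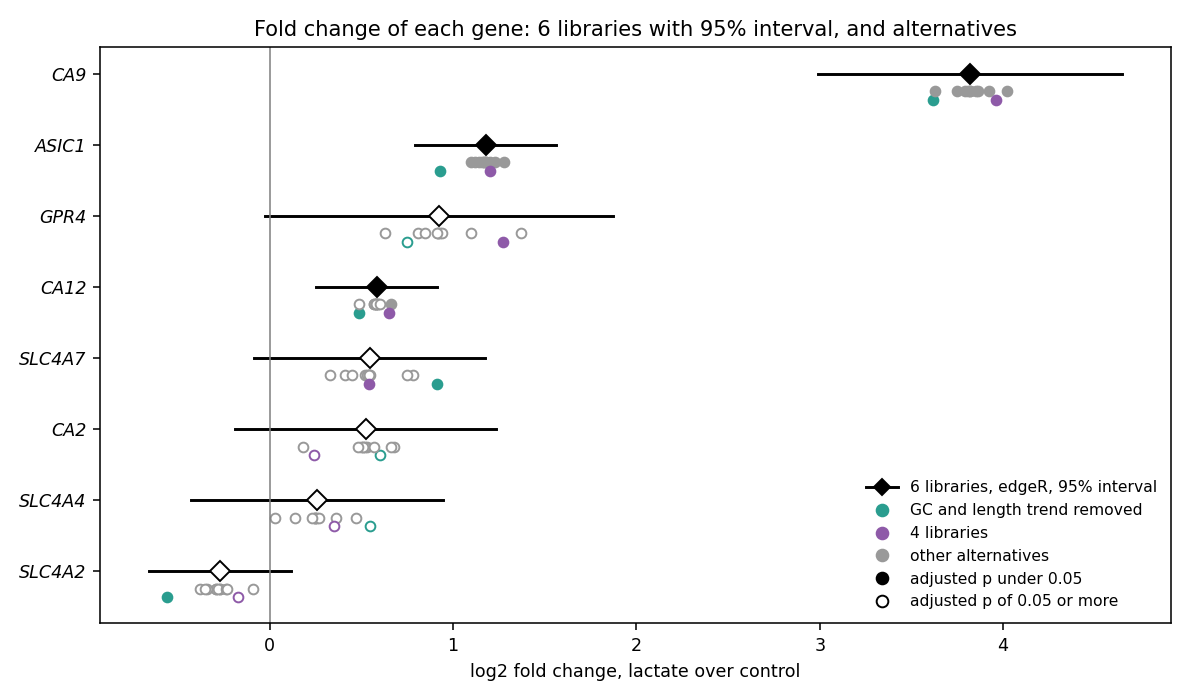
Log2 fold change of each gene (horizontal axis, lactate over control). Diamonds and lines are the edgeR fit on 6 libraries with its 95% interval, circles are the alternatives, and filled symbols have an adjusted p under 0.05. *CA9* at 3.82 and *ASIC1* at 1.18 stay well to the right of 0, and removing the trend on GC content and length moves *SLC4A7* from 0.54 to 0.91 and *SLC4A2* from -0.27 to -0.56.

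Around these transporters, 20 genes of bicarbonate and anion exchange were followed. Of these, 15 were in the table and 11 were tested, and 0 rose or fell by edgeR. At an unadjusted p under 0.05, 1 was lower (*SLC26A2*), and DESeq2 called the same gene. The shares over all tested genes were 5.29% higher and 4.14% lower by edgeR, 13.9% lower at an unadjusted p under 0.05 and 7.35% lower by DESeq2. *SLC26A2*, a sulfate transporter gene, had 14.3, 26.8 and 31.4 CPM in controls and 9.68, 15.7 and 14 CPM with lactate, and control replicate 1 was level with the lactate libraries. Its log2 fold change was -0.88 (SE 0.303, edgeR adjusted p = 0.0997). It fell by 0.88 in DESeq2 (adjusted p = 0.0335) and by 0.52 after the correction for GC content and length (0.0273). It also fell by 0.98 with 4 libraries (9.49e-08) and by 1.15 without control replicate 1 (0.0156). The fit with that correction called 23.4% of tested genes, and the fit on 4 libraries called 47.4%.

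Sodium-proton exchangers and their partners, which expel protons in exchange for sodium, also did not pass. Of 16 such genes 12 were in the table and 10 were tested, and 0 rose or fell by edgeR or DESeq2 (at an unadjusted p under 0.05, 1 was higher, *SLC9A3R1*, and 1 lower, *SLC9A9*). Every lactate library lay below every control for *SLC9A9*, and above every control for *SLC9A3R1*, *SLC9A5* and *SLC9A7*. Groups were separate upward in 17.3% of all tested genes and downward in 15.3%, or 32.6% in either direction. *SLC9A7*, an exchanger of the Golgi, was the most abundant of the group, with 111 ± 3.59 CPM in controls against 140 ± 21.7 CPM with lactate (adjusted p = 0.194 for a log2 fold change of 0.33). The gene passed after the correction for GC content and length (0.43, adjusted p = 0.0266) and with 4 libraries (0.46, adjusted p = 7.85e-05). These fits called 23.4% and 47.4% of tested genes. *CHP1*, a cofactor of these exchangers, had a fitted log2 difference of -0.02 (adjusted p = 0.925). Over the 4 groups of genes together, 5 of 36 tested genes rose and 0 fell (4 lower at an unadjusted p under 0.05, and 1 by DESeq2). These lists contain the 8 genes followed here, and 3 of the 5 that rose (*CA9*, *CA12* and *ASIC1*) are among those 8. Outside the 8, those that rose were *CA7* and *TMEM206*. Genes and lists were chosen with earlier results of these data known, so the counts describe them and test nothing. Over all tested genes the shares were 5.29% higher and 4.14% lower by edgeR, 13.9% in each direction at an unadjusted p under 0.05 and 7.35% lower by DESeq2.

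**Figure D4:**
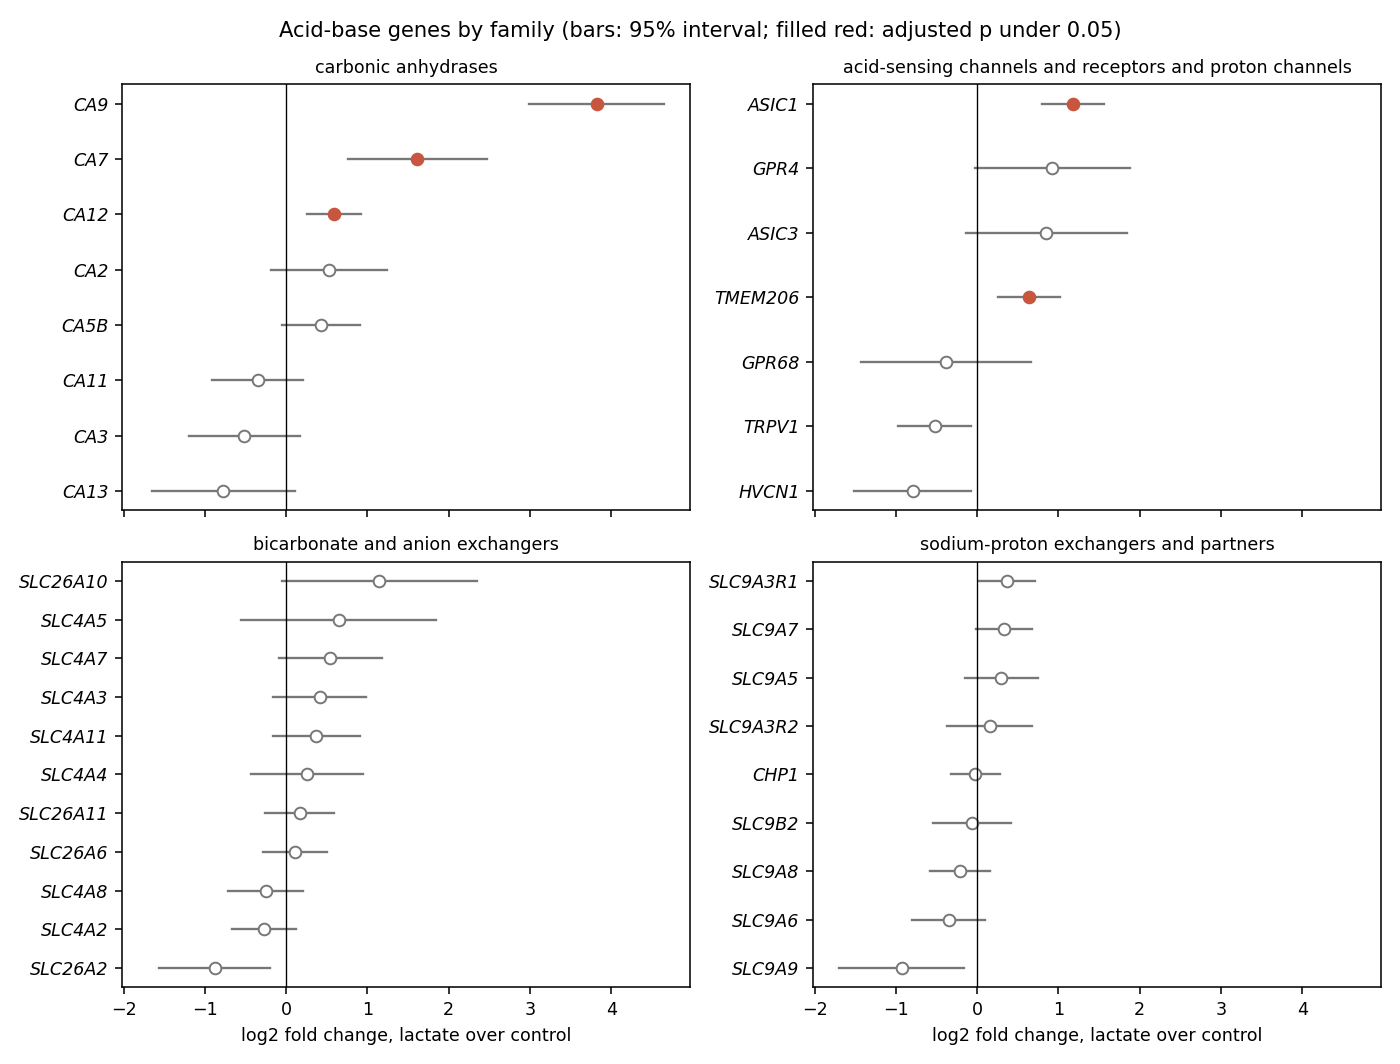
Log2 fold change, lactate over control, of tested genes of the 4 acid-base families with 95% intervals. Red filled circles have an adjusted p under 0.05. The 5 red genes are *CA9* (3.82), *CA7* (1.61), *CA12* (0.58), *ASIC1* (1.18) and *TMEM206* (0.63), all in the upper panels.

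Per kb of transcript, the order of the 8 genes in controls was *SLC4A2* (52.8 ± 11 CPM per kb, SD, n = 3), *CA12* (6.1 ± 0.0455), *ASIC1* (3.5 ± 0.423), *SLC4A7* (2.1 ± 0.642), *CA2* (0.925 ± 0.0591), *SLC4A4* (0.263 ± 0.0386), *GPR4* (0.22 ± 0.104) and *CA9* (0.106 ± 0.0291). The libraries of *SLC4A4* and *GPR4* overlapped, as did those of *GPR4* and *CA9*. With lactate *ASIC1* (7.94 ± 0.725) reached the range of *CA12* (9.15 ± 1.05), and *CA9* (1.57 ± 0.194) moved to the fifth place beside *CA2*, ahead of *GPR4* (0.432 ± 0.0933) and *SLC4A4* (0.311 ± 0.0984). Lengths are those of the longest annotated transcript, and the transcript used in these cells can be another. Fewer transcripts per cell and fewer cells that express a gene cannot be told apart in bulk RNA.

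The genes whose profile over the 6 libraries was most like that of *CA9* were *PTP4A3*, *KRTAP2-3*, *KCNG1*, *KRTAP4-12* and *MEGF6*. Likeness was the root-mean-square distance between log2 CPM, with a prior count of 2 added, centred on each gene's own mean. It ran from 0.3 for *PTP4A3*, a phosphatase gene, to 0.528 for *MEGF6*. The prior count shrinks differences at low counts, so genes scarce in controls can lie closer to *CA9* than their fitted folds do. *KRTAP4-12*, at a distance of 0.377, had a fitted log2 fold change of 5.70 against 3.82 for *CA9*. *PTP4A3* had 0.548 ± 0.165 CPM in controls against 5.88 ± 1.12 CPM with lactate, and *KCNG1*, a potassium channel subunit gene, 2.72 ± 0.375 and 17.8 ± 2.3 CPM. The keratin-associated protein gene *KRTAP2-3* had 2.34 ± 0.238 and 21.2 ± 4.92 CPM. *KRTAP4-12*, another gene of that kind, had 0, 1 and 0 raw counts in controls and 24, 11 and 20 with lactate. As members of a family of close copies, *KRTAP2-3* and *KRTAP4-12* have uncertain counts. *MEGF6* was also near the limit of detection in controls, with 2, 2 and 3 raw counts against 32, 15 and 31 with lactate. For *ASIC1* the nearest were *FBLN1*, which encodes the matrix protein fibulin 1 (distance 0.0321), *ASNS*, which encodes asparagine synthetase (0.0534), and the splicing gene *PRPF40B* (0.0624). *FBLN1* had 79.3 ± 10.7 CPM in controls against 182 ± 13.6 CPM with lactate. *ASNS* had 101 ± 12.8 and 245 ± 25 CPM. These genes were picked for their likeness, so no test of it is given.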

How the data were processed

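For 6 poly(A) RNA libraries from a directional kit, read as single ends, the authors deposited a table of raw counts by gene symbol. The study's methods name the RNA-Seq Alignment App, and STAR, DESeq2 and hg38 are listed in the submitters' processing notes. Versions and the strand setting are not given in the sources used here. Groups came from the treatment label, and replicate numbers follow sample order and pair nothing. The methods call all samples biological replicates, and the labels do not say what separates them. The p-values therefore set the difference between the groups against the spread between these samples only.

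The test was that of edgeR 4.0.16, run under R 4.3.3 (TMM, filterByExpr, quasi-likelihood F test, two-sided), with Benjamini-Hochberg adjustment over 13188 genes. The standard error is the log2 fold change divided by the square root of F. Alternatives were DESeq2 1.42.0, other scalings and filters, each library left out, and a correction for each library's trend on GC content and transcript length (splines, genes with a match in GENCODE release 29, 92.2% of those tested). Scripts were tested on simulated data. The genes, lists and alternatives were chosen with earlier results of these data known. Text names the 8 genes, list genes past the threshold or else the 2 most abundant of a list, and the 5 and 3 genes most like *CA9* and *ASIC1*. *CA3*, *CA5B*, *CA11*, *CA13*, *SLC26A2*, *SLC9A3R1*, *SLC9A5*, *SLC9A9*, *TRPV1*, *HVCN1* and genes that overlap the 8 were added after their values were seen. Upstream sequence is from RefSeq (GRCh38.p14). Values of some tested genes are not reported here.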

Additional observations from a re-analysis of the deposited data

How the results depend on the processing

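*CA9*, and in 12 of 13 alternatives *ASIC1*, kept their direction and call. With 1 library left out, log2 fold changes ran from 1.10 to 1.28 for *ASIC1*, from 0.49 to 0.66 for *CA12*, from -0.38 to -0.09 for *SLC4A2*, from 0.33 to 0.78 for *SLC4A7*, from 0.03 to 0.47 for *SLC4A4* and from 0.63 to 1.37 for *GPR4*. The genes called higher ran from 92 to 1480 and those called lower from 79 to 1612, the 8 genes called higher from 1 to 3, and genes of the 4 acid-base lists called higher from 1 to 5 and lower from 0 to 1. The *CA12* call was lost with total library size (log2 fold change 0.57, adjusted p = 0.0572) and with no filter (0.57, adjusted p = 0.0511), where 3 list genes were called higher. With genes of at least 10 CPM, 402 were called higher and 290 lower, 3 of them list genes, and *CA9*, *CA2*, *SLC4A4* and *GPR4* could not be fitted. DESeq2 called 1104 higher and 1057 lower, with 1 list gene lower. After the correction for GC content and length, 1292 were higher and 1550 lower, 1 of the 8 genes was lower, list genes were 8 higher and 4 lower, and *SLC4A2* (-0.56) and *SLC4A7* (0.91) passed. With 4 libraries, added after the data were examined, 3002 were higher and 3293 lower, 5 of the 8 genes were higher, list genes were 10 higher and 3 lower, and *SLC4A7* (0.54) and *GPR4* (1.27) passed. The edgeR fit on all libraries called 698 higher and 546 lower. Not divided by length, the *CA9* share differed by 2.88 instead of 8.35 percentage points. The cause of these changes was not tested. No paired analysis was possible because the labels give the groups no shared replicate numbers. Low counts of *CA9* and *GPR4* in controls limit the precision of their folds.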
